A study of Homo sapiens with 20 samples.

Results

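The USP genes encode the ubiquitin-specific proteases, the largest family of human deubiquitinases. They were taken as every gene whose symbol is USP followed by a number and an optional letter and which had at least 1 probe set naming that gene alone, with 2 USP genes left out by the selection rule. This gave 45 genes, measured by 122 probe sets, of 19353 genes on the array. Each gene was represented by its brightest probe set over all 20 arrays, and 40 of the 45 had a mean log2 value above 4.5 in at least 1 group, as did 10834 genes in all. The rule itself used no difference between groups, but the family was chosen with earlier results of these data known.

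The arrays compared 4 groups of 5 samples from a HEK293 cell line, which is derived from human embryonic kidney and here carries the Flp-In T-REx system for inducible transgenes. Induced samples were a stable line expressing EGFP-tagged human ZFP36 after 1 µg/ml doxycycline for 16 h, and mock-induced samples were the same line given water. Parental doxycycline samples were the untransfected Flp-In T-REx HEK293 line given the same drug, and parental vehicle samples were that line given water. ZFP36 (tristetraprolin) binds AU-rich elements in the 3′ untranslated regions of mRNAs and recruits the deadenylation and decay machinery. Induced cells were sorted for green fluorescence, the sort of mock-induced cells left out fluorescent ones, and doxycycline-treated flasks of the EGFP-ZFP36 line were less confluent with more floating cells, so the transgene, the sort and the state of the culture cannot be told apart in this comparison. The tagged line is a single stable line set against its parent. The study's methods give the lines different passage dilutions and growth times before treatment, so line and culture cannot be told apart in any comparison across the lines.

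Ubiquitin is attached to proteins by a cascade of E1, E2 and E3 enzymes and is cut off again by deubiquitinases. Most USP enzymes are cysteine proteases that cut the isopeptide bond between ubiquitin and its target or between ubiquitins in a chain, and they act in proteasomal degradation, histone modification, DNA repair, receptor trafficking and signalling. Several work only with a partner, such as the WD-repeat protein WDR48 (UAF1), which activates USP1, USP12 and USP46.

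Crosslinked ZFP36 sites, mapped by PAR-CLIP in a separate doxycycline-inducible HEK293 line carrying FLAG/HA-tagged ZFP36, had been listed for 6 of the 45 genes in the portion of the site table used here. Their sequences are shown because they are the places in these transcripts where FLAG/HA-tagged ZFP36 was crosslinked. Each is written in DNA letters, 5′ to 3′ on the transcript strand, with TATT in capitals, the UAUU core of the AU-rich element that ZFP36 recognises.
USP38: actataacaaatatctatctttTATTt
USP53: atacatatatactaatcatttta
USP48: cctaaactTATTtTATTATTATT
USP24: cttaaatTATTaatatataaTATTt
USP33: ttttcttcctatataattat
USP45: catctacatttaatataaataattatg
The USP38 site lay in the 3′ untranslated region at chr4:144141673-144141700 (hg19, plus strand, coordinates as listed) and the USP53 site in the 3′ untranslated region at chr4:120216447-120216470 (plus strand). The sites of USP48 (chr1:22082670-22082693), USP24 (chr1:55631912-55631937) and USP33 (chr1:78206630-78206650) were intronic on the minus strand, and that of USP45 (chr6:99930594-99930621, minus strand) was in coding sequence. TATT, searched on the transcript strand, was in 3 of these 6 sites, against 78.7% of the 1581 listed sites of 20 to 27 bases. The pentamer ATTTA was in 1 of the 6, in USP45, against 47.6% of those sites. Because the list is partial, a USP gene missing from it carries no information about binding.

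The ZFP36 probe set averaged 5.42 ± 0.49 in induced cells and 5.36 ± 0.43 in mock-induced cells (log2 value, SD, n = 5 each; exact permutation p = 0.833, two-sided), so it did not check the labels. It averaged 3.76 ± 0.58 in parental doxycycline and 3.45 ± 0.56 in parental vehicle cells, the mock-induced level being 1.91 above the parental vehicle level (exact permutation p = 0.00794, two-sided, the smallest possible). Whether the probe set covers any of the transgene is not known here. VIM and NEFL, markers of HEK293 cells, were bright in all groups, while PAX8 and LHX1 were under the filter. PAX2 averaged 4.86 in induced cells and was above the filter through that group alone. Its mock-induced average of 2.77 was under 4.5, so the size of the rise was not measured and no p is given. EYA1 averaged 4.44 in induced cells and 5.50 in mock-induced cells, against 7.20 in parental doxycycline and 7.05 in parental vehicle cells, and was lower both on induction (−1.06) and in mock-induced against parental vehicle cells (−1.55), where NEFL was higher in both (0.63 and 0.77). NEFM averaged 12.3 in both parental groups, against 5.81 in induced and 3.87 in mock-induced cells. Of 13 markers of blood, endothelial, fibroblast and other cells with a probe set, 2 were above the filter, both collagens. The summed log2 level of the 13 spanned 41.1 to 41.6 in induced, 35.7 to 36.7 in mock-induced, 36.9 to 38.1 in parental doxycycline and 37.7 to 38.8 in parental vehicle arrays, and PTPRC, CD3E and HBB were near the floor throughout. Their part in the results below was not tested. These are bulk samples, in which fewer cells of a type and less RNA per cell cannot be told apart. Nothing in the labels states that samples of a group came from separate cultures, but the study's methods describe repeats on 5 days.

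The first question was which USP transcripts differed after induction of EGFP-ZFP36. At a Bonferroni-adjusted p below 0.01 (limma, adjusted over all 10834 genes), 19 of the 40 USP genes passed, or 47.5%, against a background of 51.9% of all genes tested. Of these, 8 were lower in induced cells, or 20% of the members against 23.1% of all genes, and 11 were higher, or 27.5% against 28.8%. The family as a whole was therefore close to the background in both directions. Its median log2 difference was 0.30, against 0.20 over all genes, and its median absolute difference was 0.70, against 0.84. The groups did not overlap for 35 of the 40, against 80.0% of all genes. When arrays were centred on their poly-A spike-in controls, which averaged 8.80 ± 0.24 with induction and 8.43 ± 0.18 without it (SD, n = 5 each, two-sided exact permutation p = 0.0238), the split of the members became 8 lower and 6 higher, and the median of all genes moved to −0.16 and that of the USP genes to −0.06. Of all 10834 genes, 3245 were then lower and 1699 higher. Centring on hybridization controls moved the median of all genes to 0.08. Directions given below therefore hold relative to the deposited scaling, and the members that lost a call under another centring are named. The role groups below were drawn up with earlier results of these data known, so their counts and medians describe these genes and test nothing.

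**Figure D1:**
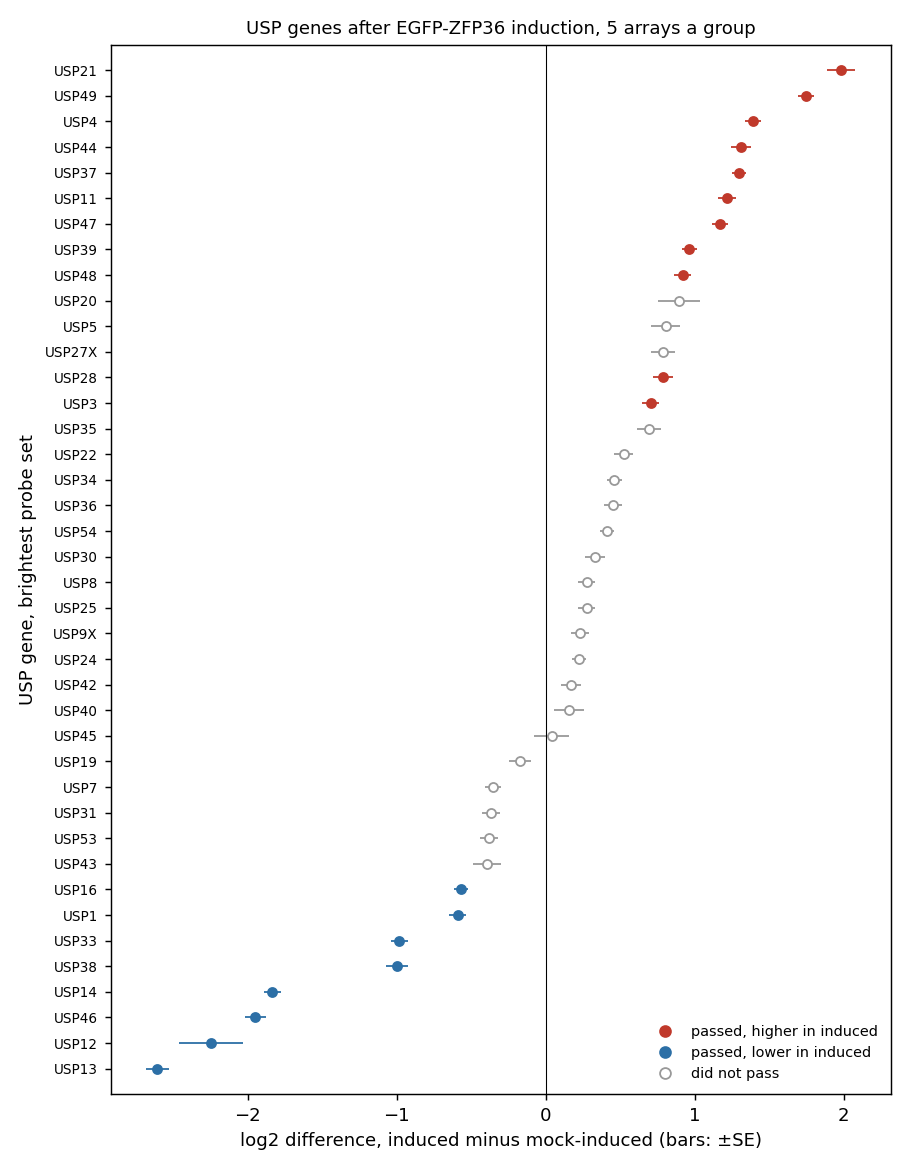
Log2 difference (induced minus mock-induced, ± SE, 5 arrays a group) of the brightest probe set of each of the 40 USP genes above the filter, sorted by size. Filled red points passed and were higher in induced cells (11 genes, up to 1.98 for USP21), filled blue points passed and were lower (8 genes, down to −2.60 for USP13), and open points did not pass.

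The 3 partners of WDR48 were all lower in induced cells, with a median difference of −1.95, where 23.1% of all genes tested were lower. USP12, a regulator of receptor and histone ubiquitination, read 7.70, 7.59, 7.40, 6.55 and 7.90 in the induced arrays, against 9.83, 9.49, 9.71, 9.58 and 9.76 in the mock-induced arrays. The groups did not overlap, and 1 induced array lay well under the other 4. The difference was −2.25 ± 0.21 on the log2 scale (SE, 4.74-fold lower, limma adjusted p = 0.00564). Without that array, induced replicate 4, it was −2.03 with an adjusted p of 5.61e-05, whereas without any 1 of induced replicates 1, 2 and 3 or of the 5 mock-induced arrays it no longer passed (−2.21 to −2.31, adjusted p = 0.0184 to 0.0379). USP46, the close paralog of USP12, read 7.75, 7.54, 7.92, 7.68 and 7.60 in induced arrays, against 9.73, 9.71, 9.59, 9.62 and 9.57 in mock-induced arrays. All 5 induced arrays were thus well under all 5 mock-induced arrays, by 1.95 ± 0.07 (3.86-fold lower, limma adjusted p = 3.19e-07). USP1, which deubiquitinates FANCD2 and PCNA in DNA repair and was the brightest member, read 12.75, 12.74, 12.98, 12.80 and 12.80 in induced arrays, against 13.51, 13.39, 13.37, 13.44 and 13.31 in mock-induced arrays. Its fall of 0.59 ± 0.06 was small and only just passed (limma adjusted p = 0.00798), and it did not pass without any 1 array other than induced replicate 3 (−0.56 to −0.61, adjusted p = 0.0201 to 0.0529). The transcript of the shared partner WDR48 went the other way, averaging 10.91 after induction and 9.33 without it (difference 1.58, limma adjusted p = 6.16e-08).

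Of the 3 genes in a group made of USP5, its paralog USP13 and the proteasome enzyme USP14, 2 were lower in induced cells, where 23.1% of all genes tested were lower. USP13, which removes ubiquitin from targets in autophagy and endoplasmic reticulum degradation, had the largest fall of the family. It read 6.88, 6.95, 6.67, 7.12 and 6.82 in induced arrays, against 9.47, 9.52, 9.47, 9.60 and 9.41 in mock-induced arrays. The spread within a group was far smaller than the gap, which was −2.60 ± 0.08 (6.08-fold lower, limma adjusted p = 3.11e-08). USP14, a deubiquitinase bound to the proteasome that trims chains from arriving substrates, read 9.92, 9.91, 9.84, 10.06 and 9.81 in induced arrays, against 11.81, 11.68, 11.72, 11.77 and 11.71 in mock-induced arrays. The groups were again well separated, with a difference of −1.83 ± 0.06 (3.56-fold lower, limma adjusted p = 3.98e-08). USP5 (isopeptidase T), the paralog of USP13 that disassembles unanchored chains, had a difference of the opposite sign, 0.80 ± 0.10, which did not pass (adjusted p = 0.0644).

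All 3 tested genes of the group made of the DUSP-UBL enzymes and the splicing factor USP39 were higher in induced cells, with a median difference of 1.22. Of all genes tested, 28.8% were higher, and the group was drawn up with earlier results of these data known. USP4, which acts in TGF-β signalling and on splicing factors, read 10.07, 10.14, 10.00, 10.06 and 10.14 in induced arrays, against 8.65, 8.84, 8.70, 8.67 and 8.60 in mock-induced arrays. The difference was 1.39 ± 0.05 (2.62-fold higher, limma adjusted p = 5.63e-07). However, USP4 averaged 9.83 in parental doxycycline and 9.78 in parental vehicle cells, so the mock-induced level was the one that stood apart from the parental line. USP11, its paralog with a role in homologous recombination, read 12.52, 12.52, 12.31, 12.59 and 12.46 in induced arrays, against 11.26, 11.34, 11.29, 11.26 and 11.17 in mock-induced arrays. Here the induced level was above all other groups, and the difference was 1.22 ± 0.06 (2.32-fold higher, limma adjusted p = 5.51e-06). USP39, a component of the tri-snRNP without deubiquitinase activity, was 0.96 higher (adjusted p = 1.02e-05), a call that was lost with poly-A centring.

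Among the 11 tested USP genes that act on chromatin and transcription, 5 were higher, 1 was lower and 5 did not pass, with a median difference of 0.70, where 28.8% of all genes were higher and 23.1% lower. USP21, which deubiquitinates histone H2A, had the largest rise of the family. It read 9.60, 9.68, 9.49, 9.83 and 9.60 in induced arrays, against 7.90, 7.65, 7.66, 7.72 and 7.37 in mock-induced arrays. That is a difference of 1.98 ± 0.09 (3.95-fold higher, limma adjusted p = 5.40e-06), while the mock-induced level was close to the parental averages of 7.72 with doxycycline and 7.77 with vehicle. USP49, a histone H2B deubiquitinase, read 10.19, 10.23, 10.08, 10.27 and 10.21 in induced arrays, against 8.54, 8.53, 8.40, 8.39 and 8.37 in mock-induced arrays (difference 1.75 ± 0.05, 3.36-fold higher, limma adjusted p = 5.54e-08). Its paralog USP44, known for a role at the mitotic checkpoint, read 8.11, 7.92, 8.01, 7.90 and 7.92 in induced arrays, against 6.74, 6.46, 6.68, 6.79 and 6.65 in mock-induced arrays (difference 1.31 ± 0.07, 2.48-fold higher, limma adjusted p = 1.51e-05). Neither pair of groups overlapped.

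The smaller calls of the chromatin group depended more on the processing. USP48, also an H2A deubiquitinase, was 0.92 higher (adjusted p = 6.37e-05), a call lost with poly-A centring, when all its probe sets were averaged and with a replicate block. USP3, a histone H2A deubiquitinase, was 0.70 higher (adjusted p = 0.00101), but −0.36 when probe sets of the _s_at and _x_at kinds, which can match several transcripts, were left out, and it did not pass with centring on either kind of control. USP16, which also acts on H2A, was 0.57 lower (adjusted p = 0.00133) and just missed the threshold without mock-induced replicate 4 (−0.57, adjusted p = 0.0109), and it did not pass with a replicate block. USP27X (0.79, adjusted p = 0.0118), USP22 of the SAGA complex (0.52, adjusted p = 0.0624), USP36 of the nucleolus (0.45), USP42 (0.17) and USP7, the enzyme that stabilises MDM2 (−0.35), did not pass.

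Of the 4 genes of DNA repair and the cell cycle, 3 were higher, where 28.8% of all genes tested were higher. USP37, which stabilises cyclin A, read 10.87, 10.94, 10.87, 10.92 and 10.97 in induced arrays, against 9.71, 9.53, 9.68, 9.59 and 9.59 in mock-induced arrays (difference 1.30 ± 0.05, 2.46-fold higher, limma adjusted p = 3.48e-07). The induced arrays lay within a narrow range, above every array of the other 3 groups. USP47, which deubiquitinates DNA polymerase β, was 1.17 higher (adjusted p = 2.76e-06), a call lost only with poly-A centring among the alternatives that fitted it. All its probe sets are of the _s_at kind, so it was not in the fit without them. USP28, known for stabilising MYC, was 0.79 higher (adjusted p = 0.00188) and did not pass without induced replicate 1 or 5 or mock-induced replicate 3, 4 or 5 (0.76 to 0.80, adjusted p = 0.0102 to 0.0127), nor with centring on either kind of control. USP45 differed by 0.04 with overlapping groups.

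Among the 6 enzymes of membranes and organelles only USP33 passed, and it was lower, where 51.9% of all genes tested passed and 23.1% were lower. USP33, which acts on β-adrenergic receptor and centrosome proteins, read 11.40, 11.40, 11.61, 11.35 and 11.44 in induced arrays, against 12.46, 12.33, 12.44, 12.43 and 12.43 in mock-induced arrays (difference −0.98 ± 0.05, 1.97-fold lower, limma adjusted p = 2.76e-05). The call was lost with a separate spread per group and when all its probe sets were averaged (−0.02), including a probe set under the filter in every group. Its paralog USP20 had the opposite sign (0.89 ± 0.14, adjusted p = 0.780) at a level near the filter, with averages of 5.63 in induced cells, against 4.73 in mock-induced cells. The endosomal enzyme USP8 (0.28), the mitochondrial enzyme USP30 (0.33), USP35 (0.69, adjusted p = 0.0370) and USP19, which is anchored in the endoplasmic reticulum (−0.17), did not pass by their brightest probe sets. For USP35 all 5 mock-induced arrays were under 4.5, so the fold is a bound of at least 1.25-fold higher in induced cells.

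Of the 10 tested genes of the remaining group, made of very large enzymes and others of signalling, 1 passed, with a median difference of 0.19. The share passing over all genes tested was 51.9%. USP38 read 9.45, 9.53, 9.44, 9.19 and 9.36 in induced arrays, against 10.39, 10.42, 10.33, 10.25 and 10.56 in mock-induced arrays (difference −0.99 ± 0.07, 1.99-fold lower, limma adjusted p = 0.000542). The call was lost without the filter on low values, with a separate spread per group and with a replicate block. It was the only member with a listed site in a 3′ untranslated region that passed, and the other, USP53, had a difference of −0.38 (adjusted p = 0.767). USP9X, a large enzyme of trafficking and cell survival and the second brightest member, read 12.81, 12.82, 12.75, 12.98 and 13.00 in induced arrays, against 12.56, 12.67, 12.65, 12.74 and 12.59 in mock-induced arrays (0.23 ± 0.06, adjusted p = 1). USP34 (0.46, adjusted p = 0.0242), USP54 (0.41, adjusted p = 0.0370), USP25 (0.28), USP24 (0.22) and USP40 (0.16) had positive differences and USP31 (−0.37) and USP43 (−0.39) negative ones, and none of these passed. The 5 members under the filter in every group were USP2, USP9Y, USP26, USP29 and USP51. The nearest to the filter were USP2, with 4.46 in parental doxycycline cells, and USP51, with 4.16 in parental vehicle cells, while USP35 was the dimmest member just inside it.

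**Figure D2:**
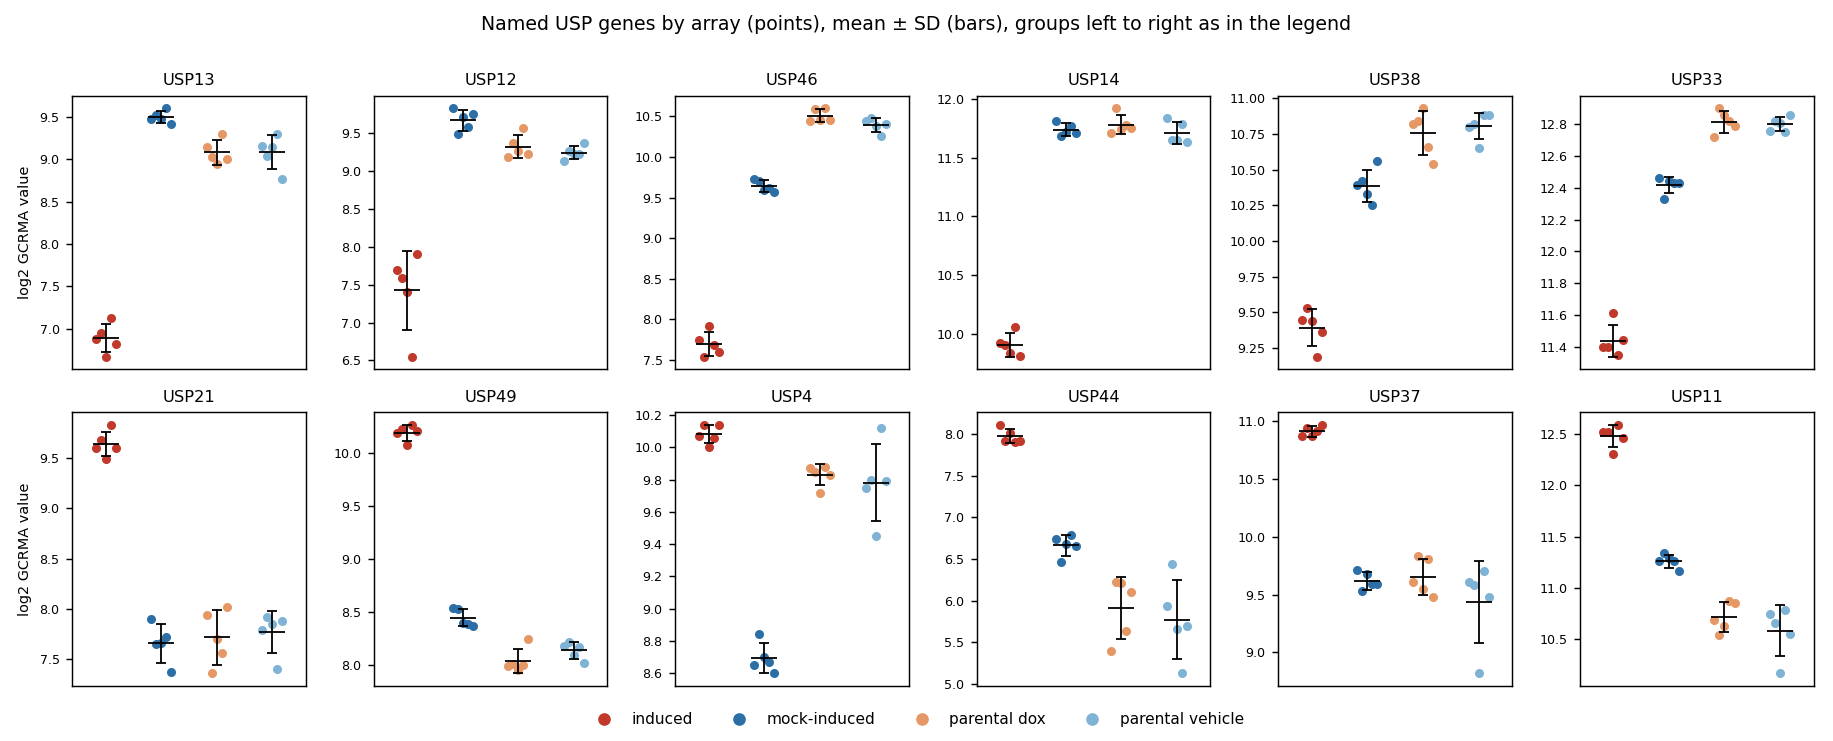
Log2 value on each array (points) with mean ± SD (bars, n = 5) for the 6 USP genes with the largest falls (top row) and the 6 with the largest rises (bottom row) among those that passed, by group from left to right (induced, mock-induced, then parental with doxycycline and with vehicle), each panel with its own vertical axis. Induced arrays lie below all 3 other groups for USP13, USP12, USP46, USP14, USP38 and USP33 and above them for USP21, USP49, USP44, USP37 and USP11, while USP4 averages 10.08 in induced cells and 9.83 and 9.78 in the parental groups.

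Paralogs were set side by side because they share a catalytic domain and often a partner. Of 12 pairs with both genes above the filter, both genes passed in 3, and each of these pairs moved in 1 direction: USP4 and USP11 were higher, USP44 and USP49 were higher, and USP12 and USP46 were lower. Among all genes tested 51.9% passed, 23.1% lower and 28.8% higher. The pairs were chosen with earlier results of these data known, so the counts were not read as agreement between paralogs. In 4 pairs the differences had opposite signs, namely USP5 (0.80) and USP13 (−2.60), USP20 (0.89) and USP33 (−0.98), USP35 (0.69) and USP38 (−0.99), and USP54 (0.41) and USP53 (−0.38). In the first 3 of these only the gene that was lower passed. USP9X and USP24, the paralogs of very large size, differed by 0.23 and 0.22, and neither passed.

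Several probe sets were above the filter for 30 of the 40 genes, which allowed the brightest one to be set against the others within a gene. All 18639 probe sets above the filter that name 1 gene were fitted together, of which 44.0% passed at the same threshold. In 18 of the 30 genes all probe sets had differences of 1 sign. In 12 of the 30 the signs were mixed, against 29.7% of all genes with several probe sets. These shares were not compared by a test and were not matched for the number of probe sets per gene. The distance between the highest and lowest difference within a gene had a median of 0.75, against 0.64 over all such genes. Probe sets were in accord for USP14 (−1.83 and −1.80), USP4 (1.39 and 1.52) and USP49 (1.75, 1.69 and 1.77, of which the second did not pass), and for USP13 all 3 were lower and passed.

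The largest difference of any USP probe set was in USP9X, whose brightest probe set did not pass. Its probe set 229573_at read 5.46, 5.92, 5.90, 6.05 and 6.13 in induced arrays, against 9.22, 9.88, 9.40, 9.59 and 9.47 in mock-induced arrays. This is a difference of −3.62 ± 0.14 (12.3-fold lower, limma adjusted p = 1.58e-06), whereas 201099_at differed by −0.56 (adjusted p = 0.127) and the brightest by 0.23. In the parental line 229573_at averaged 9.18 with doxycycline and 9.06 with vehicle. USP25 had a similar pattern. Probe set 223167_s_at read 5.57, 5.21, 4.82, 4.17 and 5.08 in induced arrays, against 7.81, 7.82, 7.76, 7.74 and 7.66 in mock-induced arrays (−2.79 ± 0.21, adjusted p = 0.00106), and its brightest probe set differed by 0.28. Within USP46, probe set 203870_at fell by 3.44 (10.8-fold lower, adjusted p = 4.52e-09), more than the brightest one, and 222941_at, which had 2 induced arrays under 4.5, differed by −0.39.

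Probe sets passed in both directions in 2 genes, USP48 and USP33, or 2 of 30 against 3.66% of all genes with several probe sets. In USP48, 3 probe sets were higher in induced cells (0.92, 0.87 and 1.31) and 229812_at was lower, averaging 6.93 in induced cells, against 8.16 in mock-induced cells (−1.23, adjusted p = 0.000919). In USP33 the brightest probe set was lower and 214843_s_at was higher, averaging 9.75 in induced cells, against 8.83 in mock-induced cells (0.92, adjusted p = 0.00249). For USP31 the brightest probe set differed by −0.37 while 226033_at (1.74) and 226035_at (1.27) were higher and passed, and for USP8 the second probe set was 1.02 lower (adjusted p = 0.000129) against 0.28 for the brightest. For USP47, 3 of 5 probe sets were higher and passed, and USP30 and USP42 each had a second probe set that was higher and passed (1.05 and 1.08). The second probe set of USP19, 214674_at, averaged 7.38 in induced cells, against 6.29 in mock-induced cells. Its difference of 1.09 did not pass (limma adjusted p = 0.0251), and the brightest one differed by −0.17. Which transcript isoforms these probe sets read was not tested.

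**Figure D3:**
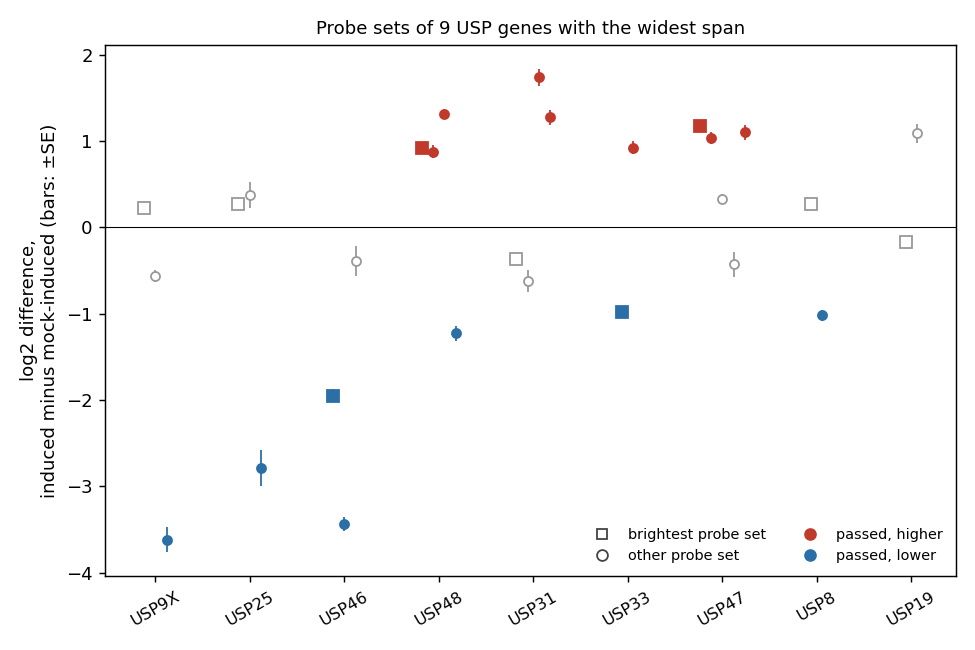
Log2 difference (induced minus mock-induced, ± SE) of every probe set above the filter in the 9 USP genes with the widest span between probe sets, with squares for the brightest probe set of a gene and circles for the others. Filled red and blue symbols passed, and the lowest circle, of USP9X, is at −3.62 while its square is at 0.23.

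The second question was whether doxycycline itself changed these transcripts. In the parental line, 0 of the 40 USP genes passed in doxycycline against vehicle cells, as did 0% of all genes tested (limma). At an unadjusted p below 0.05 the count was 0 of 40, against 241 of the 10834 genes tested. The groups overlapped for all 40, where 0.203% of all genes did not overlap, and the differences ran between −0.10 and 0.22 with a median of 0.03. USP13, for example, averaged 9.08 ± 0.15 with doxycycline and 9.08 ± 0.20 with vehicle (SD, n = 5 each). USP37 had the largest of these differences, with averages of 9.65 and 9.44 in doxycycline and vehicle cells, but parental vehicle replicate 3 read 8.82, and without it the difference was 0.06 and USP20 had the largest (0.18).

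The test of the difference itself, the interaction of doxycycline with cell line over all 20 arrays, passed for 17 of the 40 genes, or 42.5% against 47.9% of all genes tested. Of these, 7 were lower, against 22.1% of all genes, and 10 were higher, against 25.8%. The split became 6 lower and 4 higher with hybridization-control centring, where 2102 of all genes tested were lower and 1147 higher. It became 4 lower and 2 higher with poly-A centring, where 993 of all genes tested were lower and 503 higher. Both control centrings lost USP1, USP3, USP11, USP27X, USP35, USP39 and USP48, poly-A centring also lost USP4, USP33, USP38 and USP47, and centring on the array median lost USP35. The genes that passed it included 15 of the 19 that passed in induced against mock-induced cells, led by USP13 (−2.61), USP12 (−2.33), USP46 (−2.06), USP21 (2.03), USP14 (−1.90) and USP49 (1.85). USP27X (0.79, adjusted p = 0.00193) and USP35 (0.73, adjusted p = 0.00668) passed here and not in the first comparison, and USP35 did not pass in 14 of the 20 fits that left out 1 array (0.68 to 0.75, adjusted p = 0.0120 to 0.0236).

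The third question was how far the USP genes already differed between the uninduced tagged line and its parent. The lines were also passaged and grown differently and fluorescent mock-induced cells were sorted out, so line, culture and sort cannot be told apart here. The interaction contains the induced against mock-induced difference, so transgene, line, culture and sort cannot be told apart there either. In mock-induced against parental vehicle cells 8 of 40 passed, 5 lower and 3 higher, or 20% against 24.0% of all genes tested, and 29 had groups that did not overlap, against 63.3% of all genes. Their median difference was −0.09. The count was 5 without mock-induced replicate 1, 2 or 4 or parental vehicle replicate 5. With poly-A centring it was 0, where 289 of all genes tested were lower and 648 higher. Hybridization-control centring lost USP16, USP39 and USP46, and 903 of all genes tested were then lower and 1107 higher.

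USP31, whose product acts on NF-κB signalling, had the largest difference between the lines. It read 9.96, 10.20, 10.13, 10.10 and 9.98 in mock-induced arrays, against 8.87, 8.97, 8.93, 9.02 and 8.98 in parental vehicle arrays (1.12 ± 0.06, 2.18-fold higher, limma adjusted p = 1.02e-05). USP48 read 11.48, 11.59, 11.50, 11.59 and 11.46 in mock-induced arrays, against 10.40, 10.45, 10.53, 10.76 and 10.54 in parental vehicle arrays (0.99 ± 0.07, 1.98-fold higher, limma adjusted p = 0.000220). In both genes every mock-induced array was above every parental one.

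USP4 and USP19 differed the other way. USP4 read 8.65, 8.84, 8.70, 8.67 and 8.60 in mock-induced arrays, against 9.75, 9.80, 9.45, 10.12 and 9.79 in parental vehicle arrays (−1.09 ± 0.11, 2.12-fold lower, limma adjusted p = 0.00799), and it did not pass in 8 of 10 fits without 1 array (−1.06 to −1.12, adjusted p = 0.0252 to 0.0524), passing only without parental vehicle replicate 3 or 4. USP19 read 8.79, 8.80, 8.70, 8.79 and 8.69 in mock-induced arrays, against 9.84, 9.80, 9.85, 9.82 and 9.82 in parental vehicle arrays (−1.07 ± 0.04, 2.10-fold lower, limma adjusted p = 5.20e-07). The arrays of USP19 were tightly grouped in each line. USP25 (−0.92), USP46 (−0.75) and USP39 (−0.67) were also lower and USP16 (0.78) was higher. USP39 did not pass in 9 of the 10 fits without 1 array, parental vehicle replicate 4 being the exception (−0.63 to −0.68, adjusted p = 0.0163 to 0.0371), and USP16 did not pass in 4 of them, without mock-induced replicate 1, 2 or 4 or parental vehicle replicate 5 (0.76 to 0.78, adjusted p = 0.0122 to 0.0132).

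This comparison shares the mock-induced arrays with the first, so their values for a gene are not independent of each other. Side by side, induced minus mock-induced and mock-induced minus parental vehicle differences were 1.39 and −1.09 for USP4, 0.96 and −0.67 for USP39, and −0.57 and 0.78 for USP16. For USP48 they were 0.92 and 0.99, and for USP46 −1.95 and −0.75. USP31, USP19 and USP25 passed between the lines and did not pass on induction by their brightest probe set.

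**Figure D4:**
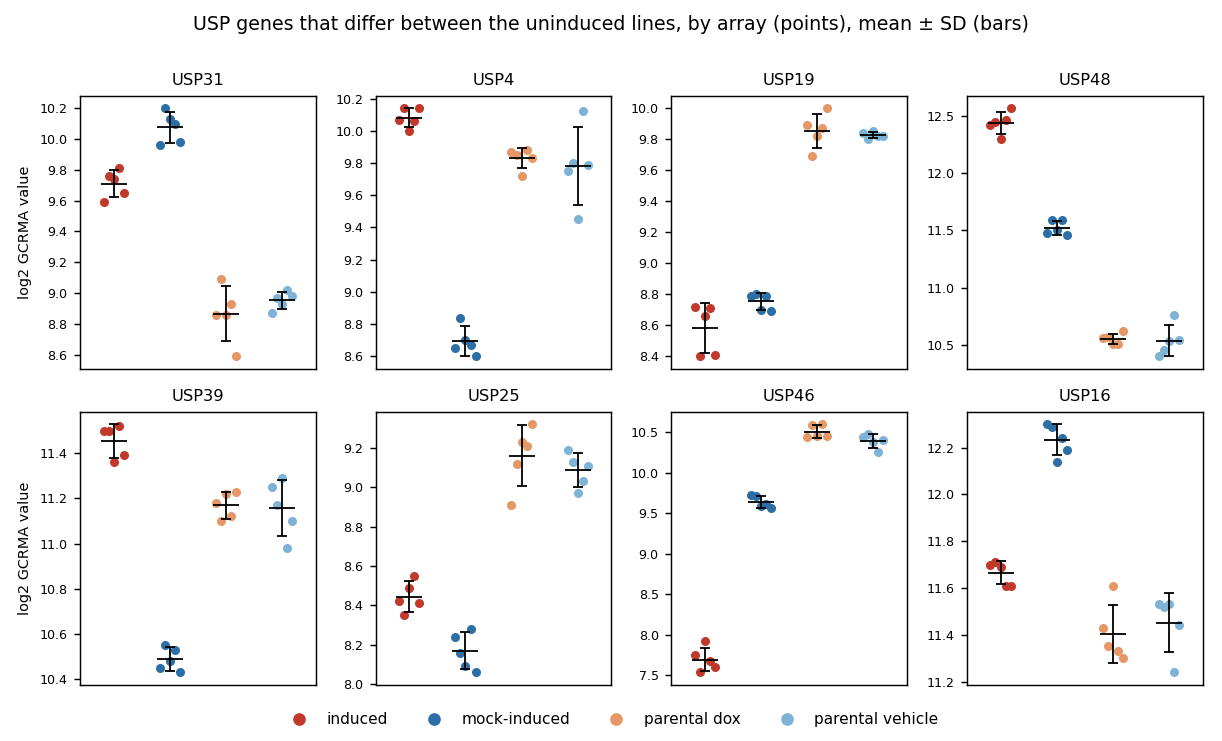
Log2 value on each array (points) with mean ± SD (bars, n = 5) of the 8 USP genes that passed in mock-induced against parental vehicle cells, by group from left to right (induced, mock-induced, then parental with doxycycline and with vehicle), each panel with its own vertical axis. The parental groups lie close together in every panel, and the induced mean is nearer to the parental means than the mock-induced mean is for USP4, USP39, USP16, USP31 and USP25, and farther for USP48, USP46 and USP19.

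**Figure D5:**
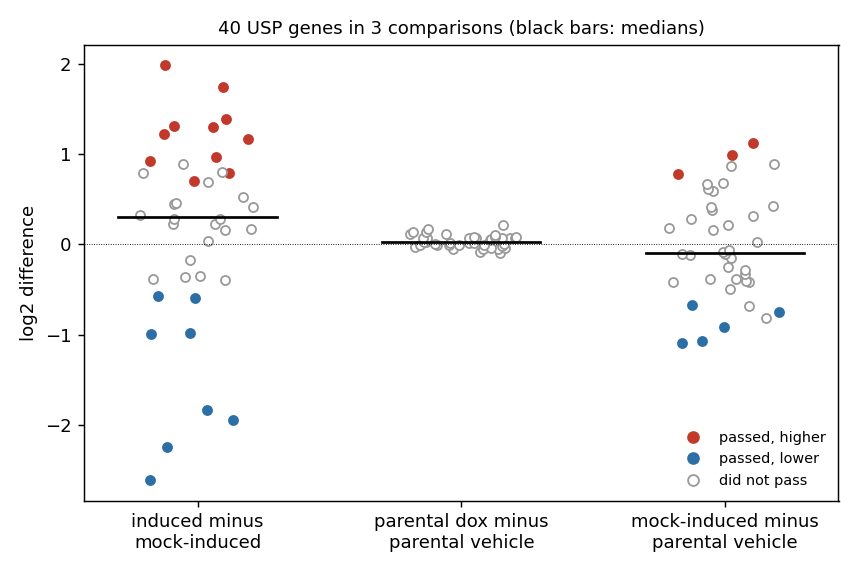
Log2 differences of the 40 USP genes in 3 comparisons, 1 point a gene, with the median as a black bar. Filled points passed: 19 for induced minus mock-induced cells, 0 for parental doxycycline minus parental vehicle cells, where all points lie between −0.10 and 0.22, and 8 for mock-induced minus parental vehicle cells.

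Other genes of the ubiquitin system were looked at in induced against mock-induced cells. Of 35 tested deubiquitinases of other families, 9 were lower, 7 were higher and 19 did not pass. That is 45.7% passing, against 51.9% of all genes tested, with a median difference of 0.19, against 0.20. Those with the smallest p were ATXN3, the Josephin enzyme of Machado-Joseph disease (10.84 in induced cells, against 8.79 in mock-induced cells, a difference of 2.05), the endosomal JAMM enzyme STAMBP (−1.38), the eIF3 subunit EIF3F (0.90), the Josephin enzyme JOSD1 (1.28) and the OTU enzyme OTUB2 (2.01). Of 10 listed ubiquitin genes and E1 enzymes 4 could be tested, and UBA6 (9.31 in induced cells, against 10.97 in mock-induced cells, −1.66) and the NEDD8-activating subunit UBA3 (−1.07) were lower. UBA1 (0.48) and UBB (−0.29) did not pass, so 50% passed, close to the background of 51.9%.

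Of 37 tested partners and substrates of USP enzymes, 7 were lower, 13 were higher and 17 did not pass. That is 54.1% passing, near the 51.9% of all genes tested, with a median of 0.24. The TGF-β receptor TGFBR1, a substrate of USP4, averaged 7.92 in induced cells, against 10.43 in mock-induced cells (−2.51, limma adjusted p = 1.55e-09). The ESCRT-0 subunit STAM (−1.54) and the small GTPase RAB7A (−1.71) were also lower. WDR48, given above, and RNF40, a subunit of the H2B ubiquitin ligase (1.74), were higher. In parental doxycycline against parental vehicle cells 0 genes of these lists passed.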

How the data were processed

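RNA from 20 samples (4 groups of 5, grouped by sample title) was hybridized to 1-colour Affymetrix arrays. The deposited log2 values had been background-corrected and normalized by the authors with GCRMA (the sources used here name no version), so a difference is relative to that scaling. The number of arrays limits the precision. Of 50441 probe sets, 38070 named 1 gene in the platform annotation, and 38018 of these were found in the RefSeq gene table. The brightest probe set over all arrays stood for each gene. USP15 was not analysed because its probe sets also name another gene. Genes with a group mean above 4.5 (10834) were tested with limma 3.58.1 in R 4.3.3 (lmFit, eBayes) in fits of the groups compared, with Bonferroni adjustment over all of them and a threshold of 0.01, as in the study's filter and threshold. The interaction was fitted over 20 arrays. Single values were compared by exact permutation of 5 against 5 arrays, whose smallest p is 0.00794. The fits were tested on simulated data. A bound was used where all arrays of the lower group were under 4.5.

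The USP genes, their role groups, the paralog pairs and the other gene lists were chosen with earlier results of these data known. Values per array are given for the 6 largest falls and 6 largest rises among USP genes that passed without overlap, the 4 largest differences between lines and the 2 brightest members. Of each other list up to 5 genes with the smallest p are named. PAR-CLIP site sequences, aligned to hg19, were read from a shortened supplementary table, and the sources used here do not give whether its coordinates count from 0 or 1. Alternatives were the choice of probe set, the filter, the centring of arrays on the median, hybridization or poly-A controls, the variance model, the adjustment, a replicate block and leaving out each array.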

Additional observations from a re-analysis of the deposited data

Results flagged for a closer look

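In 11 of the 159 sets of 5 arrays looked at (USP genes above the filter in each group), 1 array lay apart from the other 4 by Dixon's criterion. Chance alone gives about 1 in 20 such sets. In induced cells these were USP1 on replicate 3 (12.98), USP35 on replicate 5 (4.68) and USP43 on replicate 4 (7.36), and in mock-induced cells USP33 on replicate 2 (12.33). In parental doxycycline cells they were USP27X on replicate 1 (8.19) and USP49 on replicate 5 (8.24). In parental vehicle cells they were USP34 (10.54) and USP37 (8.82) on replicate 3, USP7 (11.41) and USP21 (7.40) on replicate 4, and USP43 (7.37) on replicate 5.

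The difference with doxycycline differed between the tagged and the parental line for 17 USP genes (limma interaction). On the log2 scale it was lower in the tagged line for USP13 (−2.61), USP12 (−2.33), USP46 (−2.06), USP14 (−1.90), USP33 (−1.0), USP38 (−0.95) and USP1 (−0.61). It was higher for USP21 (2.03), USP49 (1.85), USP4 (1.34), USP11 (1.08), USP47 (1.06), USP39 (0.95), USP48 (0.90), USP27X (0.79), USP35 (0.73) and USP3 (0.71).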

How the results depend on the processing

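Of the 19 USP genes that passed in induced against mock-induced cells, 9 kept the call in every alternative that fitted them (USP4, USP11, USP13, USP14, USP21, USP37, USP44, USP46 and USP49) and 10 lost it in at least 1. Of those that kept it, USP4 and USP21 have only _s_at probe sets and were not in the fit without that kind. The count was 10 without _s_at and _x_at probe sets, where 31 members remained. Over all genes, 2166 of 8502 were then lower and 2166 higher. The USP count was 38 with Benjamini-Hochberg adjustment at 0.05, where 4023 of all 10834 genes were lower and 5476 higher. With a replicate block it was 12, where 1722 of all genes were lower and 2029 higher. When 1 array was left out it was 15 to 18. In mock-induced against parental vehicle cells 8 passed. Without _s_at and _x_at probe sets it was 5 (850 of 8502 genes lower, 1228 higher), and without a filter 5 (774 of 19353 lower, 979 higher). Below, brackets give the lower and higher counts of all 10834 genes. It was 5 with hybridization-control centring (903 and 1107), 0 with poly-A centring (289 and 648) and 4 with a separate spread per group (438 and 532). With all 20 arrays in the fit it was 16 (1880 and 2013), and with Benjamini-Hochberg adjustment 31 (4026 and 4084). Without 1 array it was 5 to 9. The replicate block gave 2 (364 and 669), but here it paired same-numbered arrays of different lines. The study's methods do not describe these as pairs, so that count has no clear meaning. For the interaction, where 17 passed, it was 8 without _s_at and _x_at probe sets (2095 of 8502 genes lower, 1951 higher). It was 10 with hybridization-control centring (2102 and 1147) and 6 with poly-A centring (993 and 503). With Benjamini-Hochberg adjustment it was 32 (3726 and 5105), with the block 11 (1978 and 2146) and without 1 array 16 to 17. The parental doxycycline count was 0 in all of these. The cause of these changes was not tested.

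Some signs turned. The median of the members in induced against mock-induced cells was −0.0601 with poly-A centring, and in mock-induced against parental vehicle cells 0.18 without _s_at and _x_at probe sets and 0.02 when all probe sets were averaged. In parental doxycycline against vehicle cells it was −0.33 with poly-A centring, where the median of all genes was −0.36. USP3 was −0.36 without those probe sets, while USP9X was −0.95 (adjusted p = 1.26e-05) and USP31 0.54 (adjusted p = 0.00705) when all probe sets of a gene were averaged, so that both passed against the sign of their brightest probe set. The study's methods describe treated and untreated cells as pairs on 5 days, but the labels do not tie the replicate numbers to days. Same-numbered induced and mock-induced arrays deviated together weakly (r = 0.02 to 0.22, over 0.1 in 4 of 5 pairs, and 3 of 5 arrays correlated best with their own number). With the block USP1, USP3, USP12, USP16, USP28, USP38 and USP48 did not pass. Values near the filter, as for USP20 and USP35, have the least room above background.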
